A study of Homo sapiens with 11 samples.

Results

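ARPE-19, an established human cell line derived from the retinal pigment epithelium (RPE), transcribed 97 of the 2132 long intergenic non-coding RNA genes named in the deposited table at a level that met a fixed rule. They were chosen by their measured levels: the rule took every gene whose symbol is LINC followed by 5 digits and whose mean normalised count was at least 50 in at least 1 of 5 groups. The table held 60605 features, and 13472 of them met the same rule on level. The groups were stable ARPE-19 cells taken on day 4 of expression of an open reading frame: GFP, a green fluorescent protein used as the control (n = 3 libraries), Oct4, Sox2 or Klf4 alone, or Oct4, Sox2 and Klf4 together (OSK; n = 2 libraries each). Library names of the Oct4, Sox2, Klf4 and OSK groups hold mC, and those of GFP do not. In comparisons with GFP, a difference that goes with the factor cannot be told apart from one that goes with mC. The labels name no promoter, no species of the reading frames and no clone, and they do not say that replicates came from separate cultures. The p-values therefore measure only the spread between these libraries, which may be technical.

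A long intergenic non-coding RNA is a transcript that lies between protein-coding genes and has no known protein product. Most are spliced and polyadenylated like messenger RNAs, are less abundant than messenger RNAs, and are made in fewer cell types. A few are known to act on chromatin, on neighbouring genes or as scaffolds, but most genes that carry a LINC number have no established function. Oct4, Sox2 and Klf4 are transcription factors that together can reprogram somatic cells towards pluripotency. Oct4 (gene POU5F1) binds an octamer sequence, Sox2 binds short sequences through its HMG domain, and Klf4 binds GC-rich or CACCC sequences through zinc fingers.

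Promoters are shown for 5 of the 7 LINC RNAs with the largest rise or fall in a comparison with GFP, because the results turn on these genes. The others, LINC00707 and LINC00968, are named only. Each window runs from 250 bases before to 50 bases after the start of the gene in RefSeq (GRCh38.p14), 5′ to 3′ on the strand of the gene. Capitals mark the matches of 5 motifs searched on both strands: the octamer ATGCAAAT, the SOX motif CATTGT, the KLF motif GGGNGTG, the AP-1 motif TGANTCA and the TATA motif TATAAA. LINC02535 (chr6:85404753-85405052, minus strand) rose most with Oct4, LINC01186 (chrX:46327625-46327924, minus strand) rose most with Sox2, and LINC01133 (chr1:159960974-159961273, plus strand) rose most with Klf4. LINC02159 (chr5:160938577-160938876, minus strand) fell most with Oct4, and LINC02009 (chr3:46423618-46423917, minus strand) fell most with Sox2.
LINC02535: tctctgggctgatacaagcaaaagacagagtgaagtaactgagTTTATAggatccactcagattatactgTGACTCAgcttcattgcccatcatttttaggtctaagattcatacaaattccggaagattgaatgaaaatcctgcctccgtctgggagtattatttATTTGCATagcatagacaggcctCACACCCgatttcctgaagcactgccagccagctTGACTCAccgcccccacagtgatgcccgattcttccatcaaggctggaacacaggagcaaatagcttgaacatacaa
LINC01186: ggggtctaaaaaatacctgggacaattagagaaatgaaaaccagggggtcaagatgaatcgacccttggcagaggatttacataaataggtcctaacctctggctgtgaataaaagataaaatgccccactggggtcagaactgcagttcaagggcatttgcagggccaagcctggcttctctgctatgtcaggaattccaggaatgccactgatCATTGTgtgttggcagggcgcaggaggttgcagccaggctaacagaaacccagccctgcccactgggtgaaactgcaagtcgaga
LINC01133: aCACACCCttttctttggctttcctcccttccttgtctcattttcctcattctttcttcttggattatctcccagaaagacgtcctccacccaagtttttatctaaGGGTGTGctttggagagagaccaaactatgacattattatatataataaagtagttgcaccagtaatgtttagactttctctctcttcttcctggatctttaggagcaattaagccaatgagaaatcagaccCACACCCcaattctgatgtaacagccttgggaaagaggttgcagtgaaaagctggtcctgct
LINC02159: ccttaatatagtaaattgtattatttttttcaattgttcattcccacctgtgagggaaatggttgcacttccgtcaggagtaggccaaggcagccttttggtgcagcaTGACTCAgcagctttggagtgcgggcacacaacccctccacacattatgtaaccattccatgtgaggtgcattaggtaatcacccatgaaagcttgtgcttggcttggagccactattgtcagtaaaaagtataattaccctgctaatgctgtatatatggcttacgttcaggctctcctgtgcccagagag
LINC02009: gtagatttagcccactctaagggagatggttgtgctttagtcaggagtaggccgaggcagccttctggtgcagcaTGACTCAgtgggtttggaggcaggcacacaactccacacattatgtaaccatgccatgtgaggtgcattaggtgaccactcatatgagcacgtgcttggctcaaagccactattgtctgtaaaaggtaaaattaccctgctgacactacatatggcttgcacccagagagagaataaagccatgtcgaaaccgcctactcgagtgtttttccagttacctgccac

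The LINC02535 window held 1 octamer, 1 KLF, 1 TATA and 2 AP-1 matches. The octamer was present in 2 of the 74 LINC promoters with an entry (2.7%) and in 1.80% of 27305 promoters of the same length. The other LINC promoter with an octamer was that of LINC00641, which was not called in any comparison with GFP. The LINC01186 window held 1 SOX match. That motif was found in 3 of 74 LINC promoters (4.05%) and in 11% of all promoters. The other LINC promoters with it were those of LINC00339 and LINC01836, neither of which was called in Sox2 against GFP. The LINC01133 window held 3 KLF matches. At least 3 were present in 1 of 74 LINC promoters (1.35%) and in 1.69% of all promoters. At least 1 KLF match was present in 24 of 74 LINC promoters (32.4%) and in 29.2% of all promoters. How many of the LINC RNAs with a KLF match were called in Klf4 against GFP was not counted. The AP-1 motif was found in 9.46% and 7.76%, and the TATA motif in 16.2% and 12.0%. A match describes letters in a window and is not a measured binding site.

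The LINC02159 and LINC02009 windows, on chromosomes 5 and 3, were similar in sequence. The alignment (blastn) covered 230 columns at 83.0% identity, and the single AP-1 match of each window lay inside it. No other pair of windows among the 74 aligned at an E-value of 1e-10 or less. This pair was noticed after the values of both genes were known. LCAL1, another gene of the table with a similar promoter, had no reads in 9 of the 11 libraries.

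Every library yielded 15053300 to 19791775 recovered reads, and the 97 LINC RNAs together took 0.0898% to 0.101% of the total in each. Libraries GFP replicate 1 and OSK replicate 1 stood apart. GFP replicate 1 had reads in 80.6% of the 2132 LINC genes and OSK replicate 1 in 45.9%, against 22.7% to 25.9% in the other 9 libraries. Over the 1076 LINC genes without a read in those 9 libraries, the highest normalised count was 30.8 in GFP replicate 1 and 9.76 in OSK replicate 1. Of the 17 LINC RNAs with a GFP mean under 20, 14 were higher in GFP replicate 1 than in both other GFP libraries, so the largest rises from low GFP levels are also given without it. In the OSK cells, POU5F1 stood at 28.7% of its mean in the Oct4 cells, SOX2 at 60.7% of that in the Sox2 cells and KLF4 at 105% of that in the Klf4 cells. The RPE markers PMEL, TYR and TYRP1 were present in GFP, while RPE65, which encodes the retinoid isomerohydrolase, never exceeded 4 reads. The summed level of 14 RPE markers, of which KRT8 was the largest, was 33489 to 37191 in GFP, 18376 to 18856 in Oct4, 21439 to 22127 in Sox2, 25726 to 28783 in Klf4 and 15845 to 16145 in OSK. OTX2, one of them, had a mean of 1881 in GFP and 1970 in OSK. The sum hides a different order among its markers. PMEL, TYR, TYRP1, MITF, OTX2 and SERPINF1 had their lowest mean in Sox2, with PMEL at 140 there and 809 in OSK. BEST1, RLBP1, LRAT, KRT8 and KRT18 had theirs in OSK. The sum of 5 fibroblast markers, nearly all COL1A1, was 2940 to 4867 in GFP, 2547 to 3676 in Oct4, 7053 to 8407 in Sox2, 976 to 1372 in Klf4 and 583 to 823 in OSK. The sum of 3 keratinocyte markers was 119 to 153 in Klf4, carried by KRT14, and 29.2 to 40.7 in GFP, where TP63 was the largest. The markers did not move together. KRT14 had a mean of 4.30 in GFP and 129 in Klf4, TP63 had 28.8 and 6.3, and KRT5 had 1.66 and 0.58. The sum of 6 pluripotent cell markers was 727 to 1004 in GFP and at most 718 in any other group. For 4 neural progenitor markers, nearly all PAX6, it was 2811 to 3026 in GFP and 2970 to 3593 in the other groups. The part of these markers in the results on LINC RNAs was not tested, and fewer cells of a type cannot be told apart from less RNA per cell.

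All 97 LINC RNAs matched the RefSeq annotation, 86 by symbol and 11 by an older symbol. They lay on 22 chromosomes, with 13 on chromosome 1 and 11 on chromosome 3. GENCODE release 29 classed 72 as lincRNA, 12 as processed transcript, 5 as antisense, 5 as transcribed pseudogene, 2 as bidirectional promoter lncRNA and 1 (LINC02693) as protein-coding. The label intergenic did not hold for all of them, since 18 overlapped a protein-coding gene in RefSeq and 13 started within 1000 bases of a coding start on the other strand. Such pairs need not share exons. In GENCODE, 58 of the 97 had no exon base overlapped by another gene, and 7 had more than 20% overlapped. Reads from shared exon bases cannot be told apart where the counting ignored strand, which is not given in the sources used here. In addition, 12 LINC RNAs shared more than 20% of their 50-base windows with other transcripts, LINC01089 (46.4%), LINC02246 (39.1%), LINC00339 (33.5%), LINC00342 (28.5%) and LINC00667 (23.3%) among those named here, so their counts are uncertain.

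The rule chose genes on level, and the levels are therefore a description. Of the 97 LINC RNAs, 44 reached 50 in all 5 groups, 31 in 2 to 4 groups and 22 in exactly 1 group. Those reached in only 1 group were 11 for Oct4, 4 for Sox2, 4 for OSK, 2 for GFP and 1 for Klf4. The highest group mean was less than 2 times the lowest for 40 LINC RNAs and at least 10 times the lowest for 18, with a median of 2.30. Just inside the threshold were LINC02709 (50.1 in Oct4), LINC02874 (50.6 in Klf4) and LINC02268 (50.6 in GFP), and just outside were LINC00957 (49.7), LINC01515 (48.6) and LINC02019 (48.3).

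**Figure D1:**
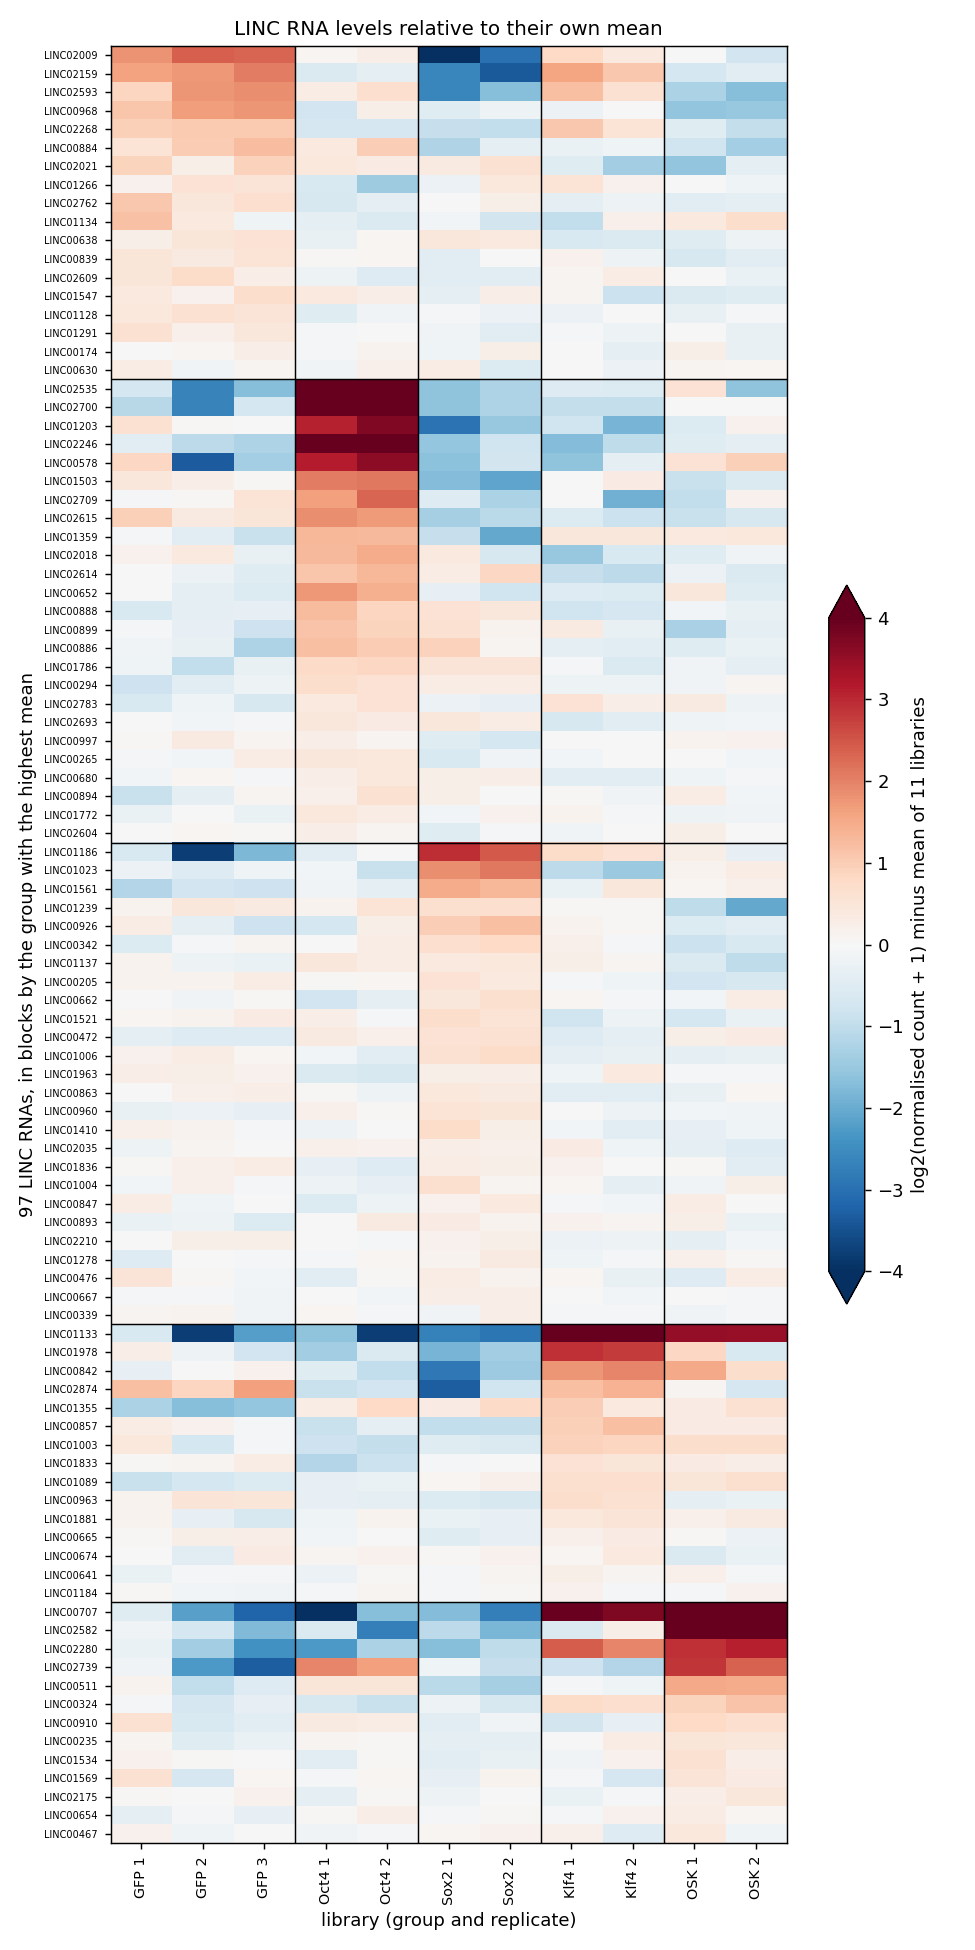
Levels of the 97 LINC RNAs (rows, in blocks by the group with the highest mean) in 11 libraries (columns), as log2(normalised count + 1) minus the mean of the row, with the colour scale ending at 4 in each direction. The blocks hold 18 rows highest in GFP, 25 in Oct4, 26 in Sox2, 15 in Klf4 and 13 in OSK, and the strongest colours sit in a few rows at the top of each block.

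The most abundant LINC RNA was LINC01833, which lies 2503 bases from SIX3, a homeobox gene of the eye field. Its normalised counts were 1123, 1162 and 1335 in GFP, 477 and 597 in Oct4, 1019 and 1063 in Sox2, 1617 and 1522 in Klf4 and 1347 and 1300.1 in OSK. The Oct4 libraries were the lowest and did not overlap with any other group. The log2 change against GFP was -1.17 (SE 0.10, adjusted p = 9e-08) in Oct4 and 0.38 (SE 0.10, adjusted p = 0.00559) in Klf4, where the call was lost without Klf4 replicate 1 (adjusted p = 0.0655). Next came LINC00472, with 803, 739.5 and 728 in GFP, 1356 and 1201 in Oct4, 1573 and 1581 in Sox2, 728 and 799 in Klf4 and 1230.4 and 1321 in OSK. Klf4 and GFP overlapped, while Oct4, Sox2 and OSK lay above them. LINC00472 rose by 0.75 (SE 0.08, adjusted p = 1.57e-06) in Oct4, 1.06 (SE 0.08, adjusted p = 2.56e-08) in Sox2 and 0.75 (SE 0.08, adjusted p = 1.47e-06) in OSK on the log2 scale. Per kilobase of exon, LINC00472 (318) was highest, followed by LINC01833 (295), LINC01836 (233), LINC00674 (151) and LINC00342 (137).

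LINC00963, LINC00205, LINC02693 and LINC00667 completed the 6 highest means. LINC00963 stood at 1031, 1354 and 1335 in GFP, 758 and 743 in Oct4, 644 and 608 in Sox2, 1545 and 1439 in Klf4 and 732 and 792 in OSK. It fell in Oct4, Sox2 and OSK and rose in Klf4, by log2 changes of -0.71, -0.97, -0.69 and 0.28 (limma, Benjamini-Hochberg adjusted p = 4.18e-05, 1.15e-06, 4.83e-05 and 0.0479). The Klf4 call was lost without any 1 library other than GFP replicates 2 and 3, with a change of 0.15 (adjusted p = 0.144) without GFP replicate 1 and adjusted p up to 0.262, and with edgeR and DESeq2 (adjusted p = 0.0618 and 0.08). LINC02693, the gene that GENCODE classed as protein-coding, stood at 683 ± 30.8 in GFP (SD, n = 3), 927 ± 56.7 in Oct4, 917 ± 79.4 in Sox2, 489 ± 54.3 in Klf4 and 639.9 ± 14.3 in OSK (SD, n = 2 each). It rose with Oct4 and Sox2 and fell with Klf4 (log2 changes of 0.44, 0.42 and -0.48, adjusted p = 0.00105, 0.00119 and 0.000557). LINC00667 had 454 ± 16.8 in GFP and was called in Sox2 alone, where it rose by 0.34 (SE 0.08, adjusted p = 0.00392).

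Differences were tested with limma on log2(value + 1) over 18828 features in all 11 libraries, and a gene was called at a Benjamini-Hochberg adjusted p under 0.05. Fold changes on this scale understate the change of low genes. Among the 5 groups, 78 of the 97 LINC RNAs differed by the moderated F test (80.4%), against 65.7% of all features tested and 82.6% of the features that met the same rule on level. A rule that takes the highest of 5 groups favours genes that differ, so no count below is read as particular to LINC RNAs. For the 22 that reached 50 in exactly 1 group, the difference of that group from the others is in part built into the choice. Their fold changes and adjusted p come from the fit over all features and are given as a description. Among those named below they are LINC01203, LINC00578, LINC02535, LINC02700, LINC02246 and LINC02018 (Oct4), LINC01186, LINC00926 and LINC01023 (Sox2), LINC01978 (Klf4), LINC02739, LINC02280 and LINC02582 (OSK) and LINC02268 and LINC02021 (GFP).

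**Figure D2:**
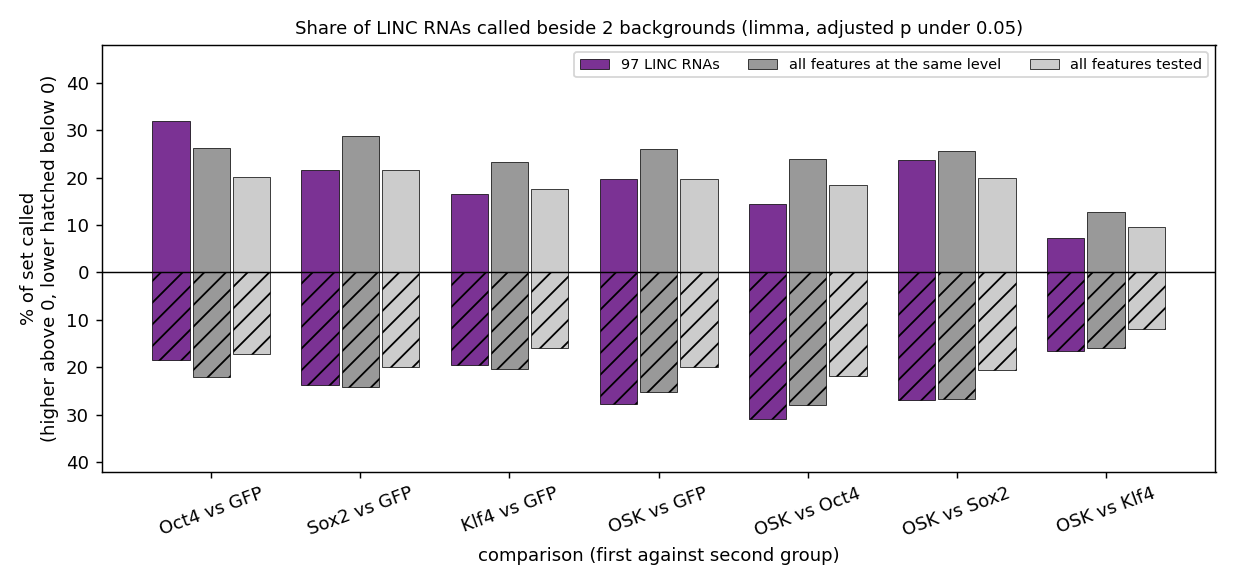
Share of features called higher (above 0) and lower (hatched, below 0) in 7 comparisons, as % of the 97 LINC RNAs, of the 13472 features that met the same rule on level, and of the 18828 features tested. The LINC RNAs called higher in Oct4 against GFP (32.0%) stand above both backgrounds (26.1% and 20.1%), while in Klf4 against GFP those called higher (16.5%) stand below both (23.3% and 17.6%). Of the 97, 11 met the rule through Oct4 alone and 1 through Klf4 alone, so these shares are in part built into the choice.

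With Oct4, 31 LINC RNAs were higher than in GFP and 18 were lower, where 20.1% and 17.2% of all features were called higher and lower. Their median log2 change was 0.01, against -0.02 over all features tested. The largest rises were from levels near 0. LINC02535 had normalised counts of 2.98, 0 and 0.97 in GFP and 172 and 242 in Oct4, a log2 change of 6.69 (SE 0.78, adjusted p = 4.72e-06). Counted as reads, this was 156-fold (95% counting interval 60.6 to 577). Without GFP replicate 1 the log2 change was 7.19, and the ratio rested on 1 GFP read, at 417-fold (74.4 to 16532). LINC02700 had 1.99, 0 and 2.92 in GFP and 157 and 156 in Oct4, a log2 change of 6.11 (SE 0.69, adjusted p = 3.42e-06) and a ratio of 94.5-fold (95% counting interval 40 to 293). Without GFP replicate 1 these were 6.31 and 105-fold (35.6 to 512). In Sox2, Klf4 and OSK both genes stayed under 10. LINC02246, which RefSeq names ASMER1, had 15.9, 10.1 and 8.75 in GFP and 475 and 449 in Oct4, a log2 change of 5.24 (SE 0.39, adjusted p = 3.21e-08), or 5.47 without GFP replicate 1, and between 5.78 and 16.5 in the other lines.

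LINC00578 had 16.9, 0 and 2.92 in GFP and 89.4 and 119 in Oct4, and GFP replicate 1 was apart from the other GFP libraries. Its log2 change with Oct4 was 4.66 (SE 0.88, adjusted p = 0.000572), 5.72 without GFP replicate 1 and 3.64 without GFP replicate 2. LINC02739 had 7.94, 1.01 and 0 in GFP, 37.2 and 29.8 in Oct4 and 71.5 and 49.5 in OSK. It rose by 3.71 (SE 0.74, adjusted p = 0.000898) in Oct4, or 4.59 without GFP replicate 1 and 3.01 without GFP replicate 3. LINC01203 had 10.9, 7.08 and 6.8 in GFP, 63.9 and 101 in Oct4 and 0 and 1.71 in Sox2. It rose with Oct4 by 3.16 (SE 0.65, adjusted p = 0.00114), or 3.35 without GFP replicate 1. Leaving out GFP replicate 2 moved the LINC02700 change above to 5.52.

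Among the LINC RNAs that fell with Oct4, LINC02159 and LINC02009 have the similar promoters shown above. LINC02159 had 270.1, 292 and 370.4 in GFP and 59.2 and 67.5 in Oct4, and the groups did not overlap, with a log2 change of -2.27 (SE 0.24, adjusted p = 1.48e-06). LINC02009 had 451, 669.7 and 639 in GFP and 134 and 153 in Oct4, a log2 change of -2.01 (SE 0.31, adjusted p = 8.91e-05). LINC00968 went from 621, 914 and 970.1 to 166 and 339.9, a log2 change of -1.78 (SE 0.23, adjusted p = 1.64e-05). The other large falls were those of LINC02874 (-2.06, adjusted p = 0.00916), LINC02268 (-1.69, adjusted p = 0.000699) and LINC01266 (-1.45, adjusted p = 0.00129). The LINC02874 call was lost without Oct4 replicate 1 (adjusted p = 0.0617).

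**Figure D3:**
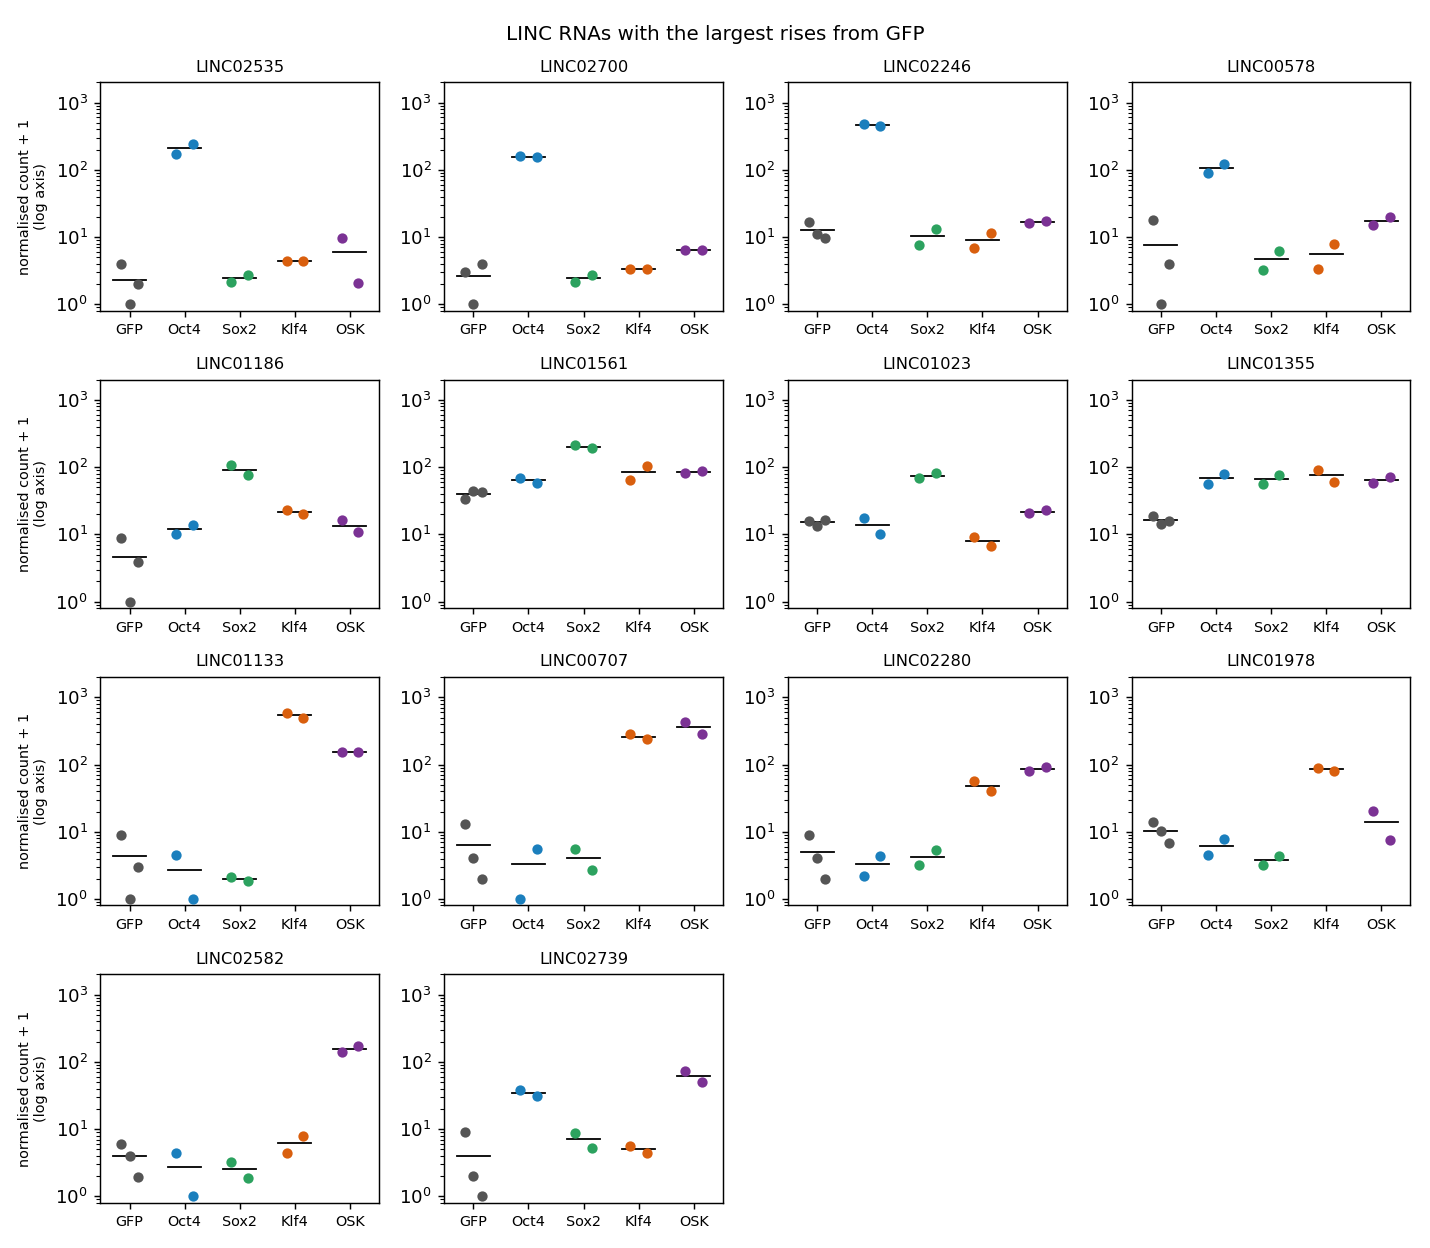
Normalised count + 1 (log axis) of 14 LINC RNAs, those with the 4 largest rises in each comparison with GFP, in 5 groups. Points are libraries and bars are group means. LINC02535, LINC02700 and LINC02246 are high only in the Oct4 libraries, LINC01133, LINC00707 and LINC02280 in the Klf4 and OSK libraries, and LINC02582 in the OSK libraries, while LINC01355 is higher in every line than in GFP.

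With Sox2, 21 LINC RNAs were higher and 23 lower, where 21.7% and 19.9% of all features were called. The median was -0.00, against -0.02 over all features. LINC01186, whose promoter holds the SOX match, rose most. It had 7.94, 0 and 2.92 in GFP, 9.29 and 12.6 in Oct4, 105 and 74.5 in Sox2, 22 and 19.4 in Klf4 and 15.2 and 9.9 in OSK, so the Sox2 libraries were the highest and every other line lay above GFP. The log2 change with Sox2 was 4.78 (SE 0.69, adjusted p = 3.33e-05), 5.50 without GFP replicate 1 and 3.92 without GFP replicate 2. LINC01561 had 32.8, 43.5 and 41.8 in GFP and 213 and 189 in Sox2, a rise of 2.33 (SE 0.23, adjusted p = 5.5e-07). LINC01023 had 14.9, 12.1 and 15.6 in GFP and 67.3 and 80.5 in Sox2, a rise of 2.30 (SE 0.39, adjusted p = 0.000173), or 2.34 without GFP replicate 1, and its other groups stayed between 5.71 and 22. LINC01355, LINC00926 and LINC00886 rose by 2.05, 1.38 and 1.09 (adjusted p = 2.26e-05, 0.00491 and 0.0162). The call of LINC00926 was lost without Sox2 replicate 2 (adjusted p = 0.053), and that of LINC00886 without GFP replicate 3 or Sox2 replicate 1 (adjusted p = 0.0662 and 0.248).

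The deepest fall among the 97 LINC RNAs in the 4 comparisons with GFP was that of LINC02009 with Sox2. It went from 451, 669.7 and 639 in GFP to 5.61 and 15.4 in Sox2, a mean of 0.0179 times the GFP mean, with a log2 change of -5.80 (SE 0.31, adjusted p = 5.12e-10). LINC02159, with the similar promoter, came next, from 270.1, 292 and 370.4 to 13.5 and 7.71, a log2 change of -4.78 (SE 0.24, adjusted p = 2.16e-10). In both genes the Sox2 libraries lay below those of every other group. LINC02593, near the sterile alpha motif gene SAMD11, went from 247, 457 and 491 to 21.3 and 41.1, a log2 change of -3.64 (SE 0.30, adjusted p = 7.6e-08). LINC02874 went from 47.7, 37.4 and 65.1 to 1.12 and 11.1, where the 2 Sox2 libraries differed, and changed by -3.30 (SE 0.57, adjusted p = 0.000191). The LINC02874 value was -2.04 without Sox2 replicate 1 and -4.55 without Sox2 replicate 2, and the LINC02009 value was -5.14 and -6.45.

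LINC01203 and LINC01503 rose with Oct4 and fell with Sox2. LINC01503 had 70.5, 61.7 and 52.5 in GFP, 215 and 222 in Oct4 and 14.6 and 11.1 in Sox2, and the 3 groups did not overlap. It changed by 1.82 (SE 0.24, adjusted p = 1.99e-05) with Oct4 and by -2.18 (SE 0.24, adjusted p = 2.24e-06) with Sox2. LINC01203 had 2 reads in the Sox2 libraries together, and its GFP level was 8.51-fold (95% counting interval 2.12 to 74.1) that in Sox2, with a fitted change of -2.47 (SE 0.65, adjusted p = 0.00602). The latter was -1.75 (adjusted p = 0.0955) without Sox2 replicate 1 and -3.18 without Sox2 replicate 2. LINC02615 had the same pattern at a higher level, with 304, 203 and 221 in GFP, 574 and 516 in Oct4, 61.7 and 73.6 in Sox2, 108 and 85.7 in Klf4 and 83.5 and 101 in OSK. It rose with Oct4 by 1.18 (SE 0.18, adjusted p = 7.39e-05) and fell with Sox2, with a log2 change of -1.81 (SE 0.18, adjusted p = 6.34e-07). In all, 19 LINC RNAs were called in both directions among the 4 comparisons with GFP. Shares over all features were not computed for this pattern or for the other patterns across comparisons given below. Those counts are therefore not read as particular to LINC RNAs. The Oct4 and Sox2 cells were not compared directly. The F test over the 5 groups gave adjusted p = 3.59e-08 for LINC01503, 4.31e-05 for LINC01203 and 6.94e-09 for LINC02615. That test asks whether any of the 5 groups differ, so it cannot decide whether Oct4 and Sox2 differ from each other. LINC01203 met the rule on level through Oct4 alone, so its F result is in part built into the choice.

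**Figure D4:**
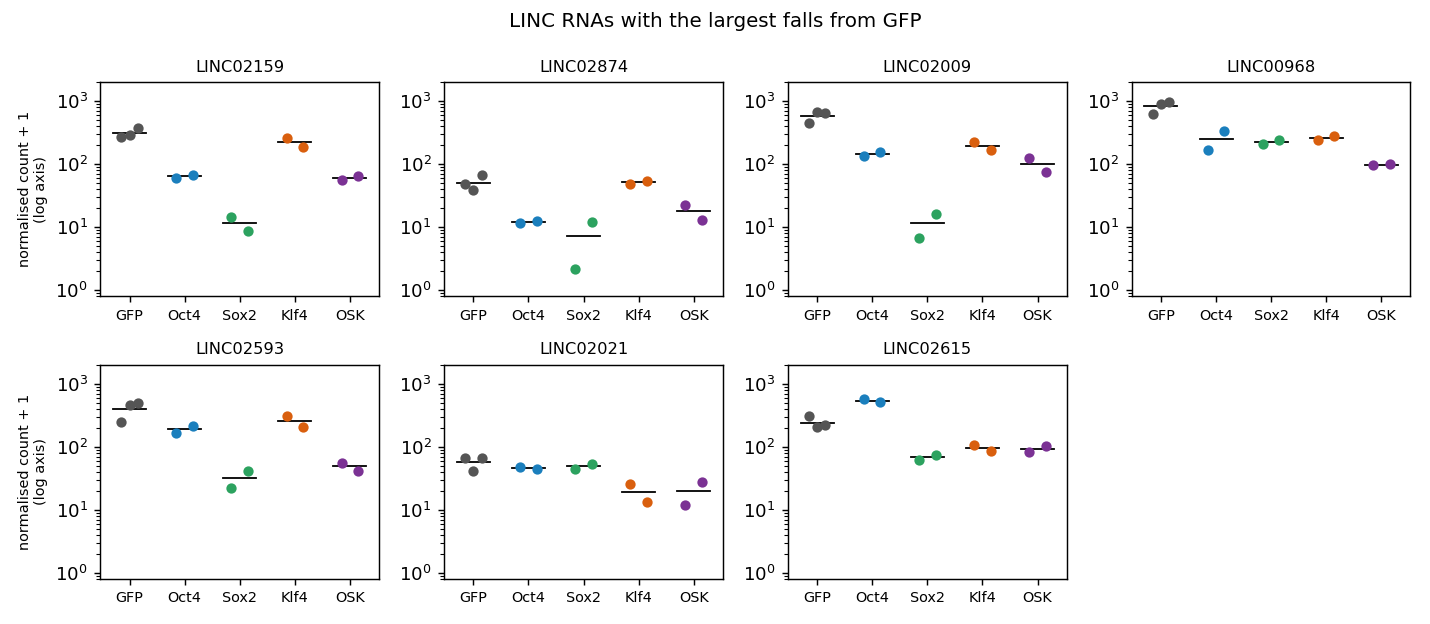
Normalised count + 1 (log axis) of 7 LINC RNAs, those with the 4 largest falls in each comparison with GFP, in 5 groups. Points are libraries and bars are group means. LINC02159, LINC02009 and LINC02593 are lowest in the Sox2 libraries, LINC00968 is lowest in OSK, and LINC02615 is highest in Oct4.

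With Klf4, 16 LINC RNAs were higher and 19 lower, where 17.6% and 16% of all features were called. The median was -0.08, against -0.02 over all features. LINC01133, with 3 KLF matches in its promoter, had 7.94, 0 and 1.94 in GFP, 3.48 and 0 in Oct4, 1.12 and 0.86 in Sox2, 579 and 492 in Klf4 and 155 and 151 in OSK. The Klf4 and OSK libraries were far above all others. The log2 change with Klf4 was 7.49 (SE 0.76, adjusted p = 1.35e-06), 8.29 without GFP replicate 1 and 6.71 without GFP replicate 2. LINC00707 had 11.9, 3.03 and 0.97 in GFP, 0 and 4.58 in Oct4, 4.49 and 1.71 in Sox2, 279.9 and 239.9 in Klf4 and 430.4 and 286 in OSK. It rose with Klf4 by 5.80 (SE 0.74, adjusted p = 1.49e-05), or 6.53 without GFP replicate 1 and 5.17 without GFP replicate 3. LINC02280 had 7.94, 3.03 and 0.97 in GFP and 55.5 and 40 in Klf4, a change of 3.54 (SE 0.63, adjusted p = 0.000402), or 4.09 without GFP replicate 1.

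LINC01978 was high in Klf4 alone. It had 12.9, 9.1 and 5.83 in GFP, 87.9 and 80 in Klf4 and 19.5 and 6.6 in OSK, and rose with Klf4 by 3.10 (SE 0.56, adjusted p = 0.000414), or 3.35 without GFP replicate 1. LINC01186 and LINC01355 also rose with Klf4, by 2.73 and 2.21 (adjusted p = 0.00581 and 1.65e-05). The LINC01186 value was 3.45 without GFP replicate 1 and 1.87 without GFP replicate 2, and its call was lost without Klf4 replicate 1 (adjusted p = 0.051). The largest falls with Klf4 were -1.63 for LINC00968, -1.61 for LINC02021, -1.57 for LINC02009, -1.31 for LINC02615, -1.15 for LINC00884 and -1.15 for LINC02018 (adjusted p = 4.86e-05, 0.00403, 0.00096, 3.37e-05, 0.00316 and 0.0245). LINC02021 lost its call without Klf4 replicate 2 (adjusted p = 0.0756), and LINC02018 lost its call without Klf4 replicate 1 or GFP replicate 2 (adjusted p = 0.287 and 0.082).

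With OSK, 19 LINC RNAs were higher and 27 lower than in GFP, where 19.7% and 20% of all features were called. The median was 0.04, against -0.01 over all features. The largest rises were those of LINC00707 (6.23, SE 0.74, adjusted p = 4.99e-06), LINC01133 (5.69, SE 0.76, adjusted p = 1.73e-05) and LINC02582 (5.43, SE 0.76, adjusted p = 2.99e-05). LINC02582, unlike the others, was low in every single-factor line: it had 4.97, 3.03 and 0.97 in GFP, 3.48 and 0 in Oct4, 2.24 and 0.86 in Sox2, 3.47 and 6.86 in Klf4 and 139 and 173 in OSK. LINC02739 and LINC02280 rose by 4.53 and 4.37 (adjusted p = 0.000129 and 3.94e-05), and LINC01186 by 2.02 (adjusted p = 0.028). Without GFP replicate 1 the changes were 6.96 for LINC00707, 6.49 for LINC01133, 5.79 for LINC02582, 5.42 for LINC02739, 4.92 for LINC02280 and 2.75 for LINC01186. Other single libraries moved LINC00707 to 5.61 (without GFP replicate 3), LINC01133 to 4.91 (without GFP replicate 2) and LINC02739 to 3.84 (without GFP replicate 3). The LINC01186 call in OSK was lost without GFP replicate 2 and without either OSK library (adjusted p = 0.084, 0.169 and 0.0701). Without OSK replicate 1 the number called fell to 11 higher and 17 lower.

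LINC00968 fell most in OSK, from 621, 914 and 970.1 in GFP to 95.4 and 99 in OSK, a log2 change of -3.06 (SE 0.23, adjusted p = 3.52e-08). LINC02593 followed, with 55.3 and 40.7 in OSK and a change of -2.98 (SE 0.30, adjusted p = 8.73e-07). LINC02009 and LINC02159 fell with log2 changes of -2.56 and -2.36 (adjusted p = 6.41e-06 and 8.58e-07). LINC00884, which RefSeq names ATP13A3-DT, had 172, 241 and 276 in GFP and 67.2 and 45.1 in OSK, a change of -2.01 (SE 0.26, adjusted p = 1.52e-05). LINC01239 had 88.4, 109 and 102 in GFP and 39 and 18.7 in OSK, a change of -1.84 (SE 0.25, adjusted p = 2.54e-05), while the single-factor lines stayed between 82.3 and 128.

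In 4 LINC RNAs the level was higher in every line than in GFP. LINC01355 was the clearest, with 17.9, 13.2 and 14.6 in GFP, 55.7 and 79 in Oct4, 56.1 and 76.2 in Sox2, 90.2 and 59.4 in Klf4 and 56.4 and 69.3 in OSK. Its changes were 2.07, 2.05, 2.21 and 1.98 in that order of lines (adjusted p = 2.64e-05, 2.26e-05, 1.65e-05 and 3.5e-05), and 2.18, 2.16, 2.32 and 2.10 without GFP replicate 1. Its differences between OSK and the single-factor lines did not pass the test. LINC01089 rose from 102, 115 and 130.3 in GFP to 151 and 157 in Oct4, 201 and 221 in Sox2, 296 and 305 in Klf4 and 269 and 298 in OSK. Its changes were 0.41, 0.86, 1.37 and 1.29 (adjusted p = 0.0208, 5.48e-05, 6.51e-07 and 9.2e-07). LINC01561 and LINC01186 were the others. The LINC01561 changes outside Sox2 were 0.67, 1.02 and 1.08 (adjusted p = 0.0314, 0.00258 and 0.0013). With Oct4, 3 of these calls rested on single libraries: LINC01186 lost its call without any 1 library other than GFP replicate 1, with adjusted p up to 0.209. Its change was 1.85 (SE 0.69, adjusted p = 0.0448), 2.58 without GFP replicate 1 and 1.0 without GFP replicate 2. LINC01089 lost it without GFP replicate 1 or either Oct4 library (adjusted p up to 0.107), as did LINC01561 (up to 0.198), and LINC01561 also lost its Klf4 call without Klf4 replicate 2 (adjusted p = 0.0743).

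The level was lower in every line than in GFP for LINC00968, LINC02009, LINC01128 and LINC02762. LINC01128 had 494, 556 and 524 in GFP, 261 and 332 in Oct4, 347 and 310.0 in Sox2, 308 and 372 in Klf4 and 296 and 345 in OSK. Its changes ran from -0.83 in Oct4 to -0.63 in Klf4 (adjusted p = 6.54e-05 and 0.000951). LINC02762 had 142, 93.1 and 108 in GFP and between 43.0 and 79.6 in the lines, with changes of -1.23, -0.63, -1.03 and -1.15 in Oct4, Sox2, Klf4 and OSK (adjusted p = 0.000401, 0.0339, 0.0019 and 0.000612). Its Sox2 call was lost without GFP replicate 1, GFP replicate 3 or either Sox2 library (adjusted p up to 0.22). These 4 comparisons share the GFP libraries, and the library names of all 4 lines, but not those of GFP, hold mC. By contrast 18 LINC RNAs, LINC00174, LINC00641 and LINC02604 among them, were called in none of the 4, which does not show that their levels were equal.

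The OSK cells were also compared with each single-factor line. Against Oct4, 14 LINC RNAs were higher in OSK and 30 lower, where 18.4% and 21.9% of all features were called. The largest falls from Oct4 to OSK were in LINC RNAs that had risen with Oct4: LINC02535 differed by -5.51 (SE 0.85, adjusted p = 7.68e-05), LINC02246 by -4.78 (SE 0.43, adjusted p = 2.22e-07), LINC02700 by -4.61 (SE 0.76, adjusted p = 0.000136) and LINC01203 by -3.57 (SE 0.71, adjusted p = 0.00074). In OSK, LINC02535 had 8.67 and 1.1 and LINC02246 had 15.2 and 16.5. LINC02739, another of the largest Oct4 rises, was not called between OSK and Oct4 (log2 change 0.82, adjusted p = 0.464, and 0.0387 in a fit of these 2 groups alone). The rises over Oct4 were LINC00707 (7.22, SE 0.81, adjusted p = 2.57e-06), LINC02582 (6.20, SE 0.84, adjusted p = 1.89e-05, 90-fold in reads, 95% counting interval 30.5 to 439), LINC01133 (6.18, SE 0.83, adjusted p = 1.83e-05, 88.4-fold in reads, 95% counting interval 29.9 to 431) and LINC02280 (4.79, SE 0.69, adjusted p = 3.77e-05, 36.7-fold in reads, 95% counting interval 14 to 136). Single libraries moved 4 of these: without Oct4 replicate 1 and without Oct4 replicate 2, LINC00707 gave 5.98 and 8.46, LINC01133 gave 7.27 and 5.10, and LINC02582 gave 7.28 and 5.12. LINC02535 gave -6.61 without OSK replicate 1 and -4.40 without OSK replicate 2. The lower level of POU5F1 in OSK, given above, moved with these differences, and its part was not tested.

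Against Sox2, 23 LINC RNAs were higher in OSK and 26 lower, where 20% and 20.5% of all features were called. The higher ones were led by LINC00707 (6.51, SE 0.81, adjusted p = 7.81e-06), LINC01133 (6.28, SE 0.83, adjusted p = 1.56e-05, 157-fold in reads, 95% counting interval 43.2 to 1306), LINC02582 (5.99, SE 0.84, adjusted p = 2.67e-05, 107-fold in reads, 95% counting interval 36.2 to 521) and LINC02280 (4.37, SE 0.69, adjusted p = 9.45e-05). The lower ones were led by LINC01186 (-2.75, SE 0.75, adjusted p = 0.00789), LINC01239 (-2.18, SE 0.28, adjusted p = 1.07e-05), LINC01023 (-1.78, SE 0.43, adjusted p = 0.00337) and LINC00926 (-1.59, SE 0.39, adjusted p = 0.00362). LINC01561, another of the largest Sox2 rises, was also lower in OSK (-1.26, SE 0.25, adjusted p = 0.00077). The LINC01186 difference lost its call without Sox2 replicate 1 or OSK replicate 2 (adjusted p = 0.0719 and 0.0636). LINC02009 and LINC02159, the deepest falls in Sox2, were higher in OSK than in Sox2 by 3.23 (SE 0.34, adjusted p = 1.3e-06) and 2.43 (SE 0.26, adjusted p = 1.59e-06). The LINC02009 difference was 2.58 without Sox2 replicate 1 and 3.89 without Sox2 replicate 2. LINC02593 was not called between the 2 (log2 change 0.66, adjusted p = 0.127), but was without GFP replicate 1 (adjusted p = 0.0498) and without Sox2 replicate 2 (1.12, adjusted p = 0.0268). Without Sox2 replicate 1 the number of LINC RNAs called in this comparison was 31 in place of 49.

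Against Klf4 the fewest LINC RNAs were called, 7 higher in OSK and 16 lower, where 9.56% and 11.9% of all features were called. LINC01133 and LINC00707 were high in both, and their differences of -1.80 and 0.44 did not pass the test (adjusted p = 0.148 and 0.768, SE 0.83 and 0.81). The LINC01133 difference was called with edgeR, DESeq2, a pseudocount of 5, a fit of these 2 groups alone and without GFP replicate 1 (adjusted p = 7.31e-05, 4.09e-10, 0.00512, 4.8e-07 and 0.0422). LINC02582 was higher in OSK by 4.72 (SE 0.84, adjusted p = 0.000616), LINC02739 by 3.60 (SE 0.81, adjusted p = 0.00415), LINC00511 by 1.62 (SE 0.24, adjusted p = 0.00013) and LINC01023 by 1.47 (SE 0.43, adjusted p = 0.0215). Lower in OSK were LINC01978, with a log2 difference of -2.76 (SE 0.61, adjusted p = 0.00354), LINC02593 (-2.39, SE 0.33, adjusted p = 5.68e-05), LINC02159 (-1.88, SE 0.26, adjusted p = 5.91e-05) and LINC01239 (-1.58, SE 0.28, adjusted p = 0.000605). The LINC01978 difference was -3.48 without OSK replicate 1 and -2.05 (adjusted p = 0.0687) without OSK replicate 2. LINC01023 lost its call without either OSK library or Klf4 replicate 2 (adjusted p up to 0.122). Without OSK replicate 2 the number called was 12 in place of 23.

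LINC02582 and LINC00511 had their highest level in OSK and were called higher there in all 4 comparisons. LINC00511 had 237, 107 and 151 in GFP, 302 and 301 in Oct4, 101 and 84.8 in Sox2, 206 and 189 in Klf4 and 618 and 598 in OSK. The OSK libraries were the highest and the Sox2 libraries the lowest, and the log2 change of OSK was 1.95 (SE 0.22, adjusted p = 3.3e-06) against GFP and 1.01 (SE 0.24, adjusted p = 0.0033) against Oct4. Another 6 were lower in OSK than in GFP and in every single-factor line: LINC00968, LINC01239, LINC00205, LINC01137, LINC00342 and LINC02035. LINC00205 shares a start region with POFUT2, a protein O-fucosyltransferase gene, and had 894, 895 and 997 in GFP, 841 and 872 in Oct4, 1211 and 1076 in Sox2, 799 and 735 in Klf4 and 478 and 520.2 in OSK. The OSK libraries were below all others, with changes of -0.89 (SE 0.08, adjusted p = 3.97e-07) against GFP and -0.62 (SE 0.09, adjusted p = 0.000121) against Klf4. LINC01137, LINC00342 and LINC02035 changed by -0.69, -0.57 and -0.41 against GFP (adjusted p = 0.00574, 0.0112 and 0.0373). These 3 calls rested on single libraries: LINC01137 lost it without OSK replicate 2 (adjusted p = 0.105), LINC00342 without GFP replicate 3 or OSK replicate 1 (adjusted p = 0.0553 and 0.119), and LINC02035 without GFP replicate 2, GFP replicate 3 or either OSK library (adjusted p up to 0.191). Against Klf4, LINC00342 lost its call without Klf4 replicate 1 (adjusted p = 0.062) and LINC02035 without Klf4 replicate 1 or either OSK library (adjusted p up to 0.381).

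Long non-coding RNAs can be transcribed with a neighbouring coding gene, so the nearest protein-coding gene of each LINC RNA was looked up in RefSeq. Both genes were tested in 74 pairs. Of the LINC RNAs that rose in Oct4, Sox2, Klf4 and OSK, 23, 16, 12 and 15 had a tested neighbour, and that neighbour was also called higher for 9, 6, 7 and 7. Of those that fell, 14, 18, 13 and 20 had one, and it was also called lower for 7, 11, 6 and 13. The neighbour was called in the opposite direction for 2, 4, 2 and 3 of those that rose and for 2, 3, 2 and 2 of those that fell. Over all features, 20.1%, 21.7%, 17.6% and 19.7% were called higher and 17.2%, 19.9%, 16% and 20% lower. Among the features that met the same rule on level, 26.1%, 28.8%, 23.3% and 26.0% were called higher. There 22.1%, 24.2%, 20.4% and 25.3% were called lower. The neighbours were not chosen on level, and the share called among all tested neighbours was not counted. Across the 74 pairs the Pearson correlation of the log2 changes was 0.50, 0.62, 0.15 and 0.26 and the Spearman correlation 0.52, 0.39, 0.33 and 0.26. The 2 values of a pair come from the same libraries, and some pairs share a neighbour, so these are descriptions.

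**Figure D5:**
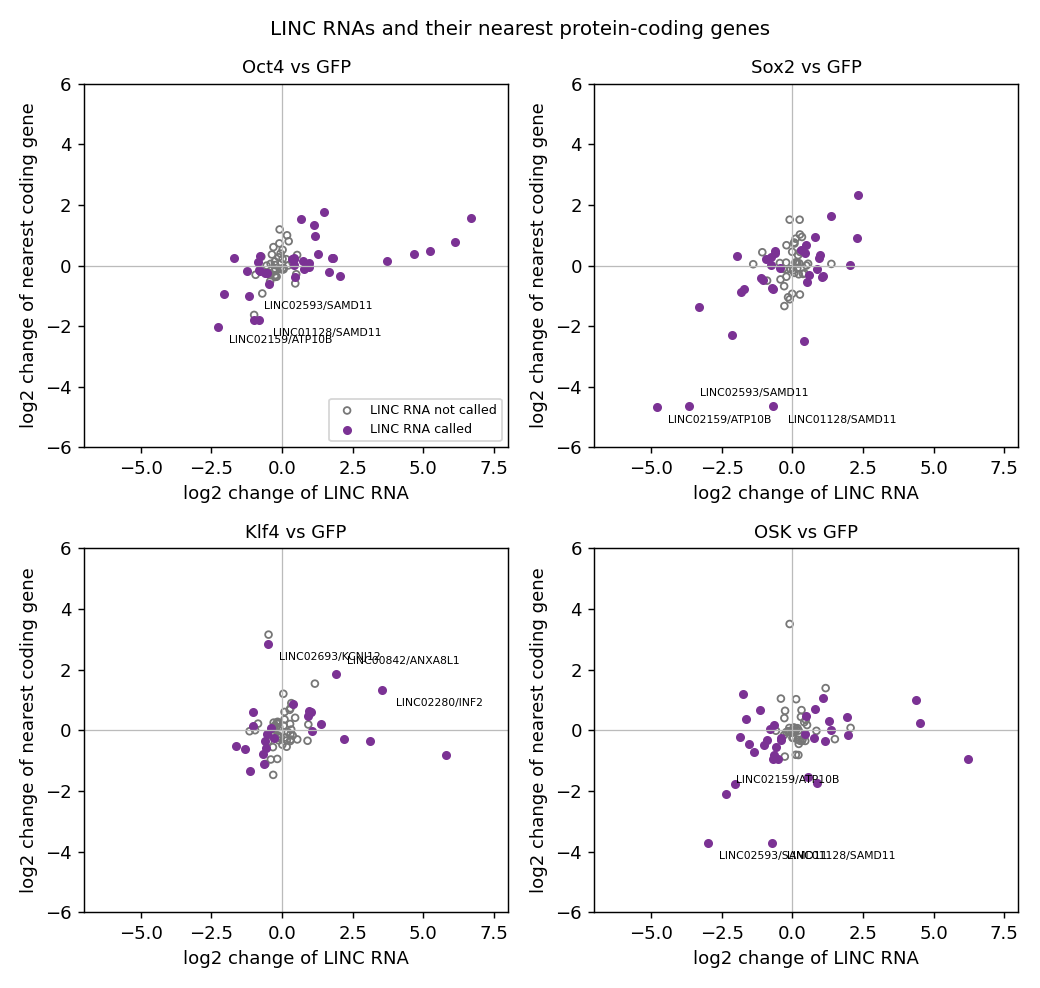
Log2 change of the nearest protein-coding gene (vertical) against that of the LINC RNA (horizontal) for 74 pairs in each comparison with GFP. Filled points are LINC RNAs called in the comparison, and the 3 called LINC RNAs with the largest change of the neighbour are named. In Sox2 the pairs with ATP10B and SAMD11 lie at the lower left, with both members of the pair down.

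LINC02159 lies 2418 bases from ATP10B, a lipid-transporting P4-type ATPase gene. ATP10B had 20.9, 39.5 and 44.7 in GFP, 6.97 and 8.01 in Oct4, 0 and 0.86 in Sox2, 442 and 210.2 in Klf4 and 6.5 and 7.7 in OSK. Like LINC02159 it was lowest in Sox2, with changes of -4.65 (SE 0.48, adjusted p = 9.53e-07) in Sox2, -2.02 (SE 0.48, adjusted p = 0.00345) in Oct4 and -2.09 (SE 0.48, adjusted p = 0.00238) in OSK. In Klf4 the pair parted: ATP10B rose by 3.16 (SE 0.48, adjusted p = 8.87e-05), while LINC02159 changed by -0.48 (adjusted p = 0.141). LINC02593 lies 4231 bases from SAMD11, which had 1147, 2202 and 1993 in GFP, 60.6 and 75.3 in Sox2 and 175 and 97.9 in OSK. SAMD11 changed by -4.64 (SE 0.24, adjusted p = 3.72e-10) in Sox2 and -3.70 (SE 0.24, adjusted p = 6.22e-09) in OSK. LINC01128 has the same nearest coding gene at 64477 bases and fell in all 4 lines, as given above.

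LINC01561 lies 5884 bases from PLPP4, a phospholipid phosphatase gene, and both rose in all 4 lines. PLPP4 changed by 1.54, 2.33, 0.60 and 1.05 in Oct4, Sox2, Klf4 and OSK (adjusted p = 5.71e-07, 3.69e-09, 0.00483 and 2.98e-05). LINC02615 and PGRMC2, a haem-binding membrane protein gene 140203 bases away, both rose with Oct4 and fell in the other 3 lines. PGRMC2 changed by 0.96, -0.87, -0.62 and -0.72 (adjusted p = 5.99e-09, 1.43e-08, 1.08e-06 and 1.37e-07). LINC00926 and TCF12, a basic helix-loop-helix factor gene 9055 bases away, both rose in Sox2, where TCF12 changed by 1.65 (SE 0.08, adjusted p = 2.46e-10). LINC01023 and FER, a tyrosine kinase gene 19636 bases away, did so too, with FER at 0.91 (SE 0.07, adjusted p = 1.55e-08). LINC02280 and INF2, a formin gene, rose in Klf4 and OSK, where INF2 changed by 1.34 (SE 0.10, adjusted p = 4.28e-08) and 0.99 (SE 0.10, adjusted p = 8.59e-07). LINC00884 overlaps ATP13A3, a polyamine transporter gene, which fell, with log2 changes of -1.34 (SE 0.10, adjusted p = 4.38e-08) in Klf4 and -1.76 (SE 0.10, adjusted p = 1.27e-09) in OSK. Reads of that pair may not be separable.

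Other pairs parted in some of the lines. NT5E, which encodes the ecto-5′-nucleotidase CD73 and lies 45281 bases from LINC02535, rose in all 4 lines, with changes of 1.57, 1.02, 1.54 and 1.39 (adjusted p = 6.02e-11, 5.41e-09, 1.24e-10 and 2.66e-10), whereas LINC02535 passed the test against GFP in Oct4 alone. HNRNPR, an RNA-binding protein gene 19170 bases from LINC01355, fell, with changes of -0.33 in Oct4 and -0.29 in Klf4 (adjusted p = 0.00195 and 0.00556) and was not called in Sox2 or OSK, while LINC01355 rose in every line. OSBP, an oxysterol-binding protein gene, was at 0.15 in Oct4 (adjusted p = 0.13) and rose by 0.24 in OSK (adjusted p = 0.0215), beside the larger rises of LINC02739. KRT80, a keratin gene 12809 bases from LINC02874, fell in Oct4 and Sox2 (-0.95 and -1.36, adjusted p = 8.88e-05 and 1.69e-06) but rose in Klf4 (1.21, adjusted p = 1.01e-05), where LINC02874 was not called. SIX3, beside LINC01833 and looked at after its values were seen, was at -1.0 in Oct4 (adjusted p = 3.51e-09) and rose by 1.03 (SE 0.06, adjusted p = 2.48e-09) in OSK, where LINC01833 was at 0.14 (adjusted p = 0.286).

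Long non-coding RNAs known by other names gave a further point of reference. Of a list of 68, 48 were tested, and 10 were higher and 15 lower in Oct4, 6 and 22 in Sox2, 8 and 18 in Klf4 and 7 and 20 in OSK. As shares these were 20.8% and 31.2%, 12.5% and 45.8%, 16.7% and 37.5%, and 14.6% and 41.7%, where over all features they were 20.1% and 17.2%, 21.7% and 19.9%, 17.6% and 16%, and 19.7% and 20%. NEAT1, the scaffold RNA of paraspeckles, rose from a mean of 16313 in GFP to 54094 in Klf4 and 64668 in OSK (log2 changes of 1.73 and 1.99, adjusted p = 2.02e-09 and 2.95e-10). GAS5, a host gene of small nucleolar RNAs, fell most in Sox2 (-1.49, adjusted p = 1.22e-10). CYTOR and MIR4435-2HG rose in all 4 lines, with 3.15 and 2.21 in Oct4 (adjusted p = 3.72e-10 and 2.76e-08). These 2 are near-identical copies, so the split of reads between them is uncertain. The antisense RNAs that met the same rule on level numbered 247, of which 51 were higher and 37 lower in Oct4 (20.6% and 15.0%), 47 and 48 in Sox2 (19% and 19.4%), 35 and 46 in Klf4 (14.2% and 18.6%) and 42 and 58 in OSK (17.0% and 23.5%), beside the same shares over all features.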

How the data were processed

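Polyadenylated RNA of 11 ARPE-19 libraries was sequenced after TRIzol extraction with the NEBNext Ultra II RNA kit, per the labels' protocols. STAR 2.7.1a, featureCounts 1.6.2 and the builds GRCh38 and GRCm38 are named, with no role, per the submitters' processing notes. The normalisation, the annotation and the use of strand are not given in the sources used here. The values deposited by the authors are a signal, here called normalised counts: judged from the values, each is a gene count divided by a factor common to its library, with 2 decimals kept. Between 99.985% and 100% of the nonzero values of a library came out as whole reads (tolerance 0.0061), which gave 15053300 to 19791775 reads per library.

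The 18828 features that reached a value of 10 in 2 or more libraries, all 97 LINC RNAs among them, were tested with limma 3.58.1 (trend) on log2(value + 1), in 1 fit over the 5 groups of the sample titles without a block, at a Benjamini-Hochberg adjusted p under 0.05. Alternatives were edgeR 4.0.16 and DESeq2 1.42.0 on recovered reads, other pseudocounts (0.5 and 5), filters and thresholds (25 and 100), and leaving out libraries. Ratios with few reads carry exact 95% intervals, which cover counting error only. Named genes were the 6 largest rises and falls called against GFP, the 4 largest called between OSK and each single-factor line, the 6 highest means and 5 highest per kilobase, those called alike in all 4 lines, those called in OSK against every group, the 3 on each side of the threshold, and nearest coding genes; names outside it (LINC00641, LINC00339, LINC00174, LINC02604, LINC02615 with Oct4, LINC01561 in OSK against Sox2, LINC02739 in OSK against Oct4, SIX3, LCAL1) were chosen after values were seen. The alternatives for 25 other printed changes of LINC RNAs were run after the values were seen. Positions and promoters came from RefSeq (GRCh38.p14), types and exon lengths from GENCODE release 29, and promoters were aligned with blastn 2.17.0. The members and lists were chosen with earlier results of these data known.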

Additional observations from a re-analysis of the deposited data

How the results depend on the processing

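Of 191 counts of LINC RNAs recomputed under the alternatives, 187 stayed within 1.5 times the reported count. The other 4 were 28 for OSK against GFP without OSK replicate 1, 31 for OSK against Sox2 without Sox2 replicate 1, 12 for OSK against Klf4 without OSK replicate 2, and 51 for any difference among the groups when the rule asked for a group mean of at least 100, which leaves 58 LINC RNAs. Leaving out 1 library at a time gave counts against GFP of 34 to 49 (Oct4), 34 to 45 (Sox2), 25 to 35 (Klf4) and 28 to 48 (OSK). It gave 34 to 46, 31 to 56 and 12 to 25 for OSK against each single-factor line in that order, and 69 to 77 for any difference. Leaving out GFP replicate 1 and OSK replicate 1 together gave 47, 44, 36, 34, 38, 38, 21 and 71 in the same order. DESeq2 on recovered reads gave 43, 39, 26, 36, 39, 38, 20 and 72. Deviations of libraries with equal replicate numbers were correlated over 10 pairs of groups. The value was 0.41 for GFP with OSK, the groups whose replicate 1 libraries stood apart, and -0.07 to 0.04 for all other pairs. A fit with the replicate number as a block gave 46, 40, 32, 39, 41, 50, 22 and 75. Of 139 changes over 43 LINC RNAs, 25 of them added after the values were seen, none reversed in 2896 recomputed values. Part of these values could not reverse. Another filter, a fit of the compared groups alone, or leaving out a library of an uncompared group does not move a limma change. Among the 139 changes, 23 lost their call in at least 1 alternative, 99 times in all, and an uncalled change passed the test 10 times. LINC02582 in OSK and LINC02535 and LINC02700 in Oct4 reached a value of 10 in only 2 libraries. They left the fit when 1 of those libraries was left out, so their changes were not recomputed there. In the counts above they stand as not called in those settings. Printed changes of neighbouring genes and of other long non-coding RNAs were not recomputed. Groups of 2 libraries and levels near the reads seen in GFP replicate 1 limit the precision of the folds of LINC RNAs that are low in GFP.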
